A study of Saccharomyces cerevisiae with 15 samples.

Results

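The 10 yeast genes described here let autophagy choose its cargo: ATG8, the scaffold gene ATG11, and the receptor or receptor-like genes ATG19, ATG34, ATG32, ATG33, ATG36, ATG39, ATG40 and ATG45. They were chosen by name for what their proteins are known to do, with earlier results of these data known. They are 10 of the 5704 genes in the deposited tables. Saccharomyces cerevisiae strain YWG25 of the Sigma1278b background was grown in rich YPD medium to mid-exponential phase, and ribosome footprints and poly(A)-selected RNA fragments were sequenced from cells without glucose (-GLU) and with glucose (+GLU). The series' stated aim was to examine how translation adapts to glucose starvation.

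The -GLU and +GLU groups each had 3 footprint and 3 RNA libraries from cells treated with cycloheximide, a drug that halts elongating ribosomes, at 100 µg/ml before harvest by centrifugation. A further 3 footprint libraries were made without cycloheximide, 1 each: -GLU cells, -GLU cells harvested fast, and +GLU cells harvested fast. All cells were of the 1 strain, labelled WT, and the time spent without glucose is not given in the sources used here. Total counts were 2391712 to 7921427 in -GLU footprints, 4159880 to 8680468 in +GLU footprints, 10591879 to 12480932 in -GLU RNA and 2423486 to 12560502 in +GLU RNA. No label states that replicates were grown separately, and the p-values therefore reflect the spread between libraries, which may be technical. The states matched their labels on a short list of genes. FBP1 and ICL1, enzymes that yeast uses to make sugar from other carbon sources, averaged 2320 ± 2100 and 5300 ± 2980 RPKM in -GLU RNA, against 1.22 ± 0.463 and 10.9 ± 0.546 RPKM in +GLU RNA (SD, n = 3 each). RPS31, which encodes a ribosomal protein, averaged 584 ± 166 RPKM in -GLU RNA and 15000 ± 5700 RPKM in +GLU RNA. Levels are given as the authors' RPKM, reads per kilobase of counted length and per 1e6 reads. In bulk cultures, a change in how many cells make a transcript and a change in its amount per cell cannot be told apart.

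In selective autophagy a receptor binds 1 kind of cargo and also binds Atg8, a small ubiquitin-like protein that is attached to a lipid of the growing autophagosome membrane. Atg11 is the scaffold that links receptors, once they are phosphorylated, to the machinery that starts an autophagosome. The finished autophagosome fuses with the vacuole, where the cargo is broken down. Yeast uses these routes to remove mitochondria, peroxisomes and parts of the endoplasmic reticulum, and to deliver a few enzymes to the vacuole during growth.

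The 300 bases before the start codon are shown for 4 of the genes, ATG8, the related pair ATG19 and ATG34, and ATG39, whose RNA had the largest change. The sequences were read from the RefSeq R64 genome, which is of the reference strain S288C and not of Sigma1278b. Capitals mark AGGGG or its reverse complement CCCCT, the stress response element bound by Msn2 and Msn4, and GGCGGC, the core of the URS1 element bound by Ume6, a repressor of ATG8.
ATG8: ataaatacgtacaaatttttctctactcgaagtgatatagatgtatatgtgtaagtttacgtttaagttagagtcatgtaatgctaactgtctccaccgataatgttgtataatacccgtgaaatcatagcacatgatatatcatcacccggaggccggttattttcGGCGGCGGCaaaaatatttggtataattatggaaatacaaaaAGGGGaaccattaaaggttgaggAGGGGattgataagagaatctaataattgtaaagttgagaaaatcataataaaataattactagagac
ATG19: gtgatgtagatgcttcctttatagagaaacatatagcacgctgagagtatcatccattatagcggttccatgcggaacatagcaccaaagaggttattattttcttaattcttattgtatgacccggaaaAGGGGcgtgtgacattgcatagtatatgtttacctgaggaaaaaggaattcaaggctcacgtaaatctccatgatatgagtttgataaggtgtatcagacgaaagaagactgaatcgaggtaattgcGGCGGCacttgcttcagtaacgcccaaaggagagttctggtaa
ATG34: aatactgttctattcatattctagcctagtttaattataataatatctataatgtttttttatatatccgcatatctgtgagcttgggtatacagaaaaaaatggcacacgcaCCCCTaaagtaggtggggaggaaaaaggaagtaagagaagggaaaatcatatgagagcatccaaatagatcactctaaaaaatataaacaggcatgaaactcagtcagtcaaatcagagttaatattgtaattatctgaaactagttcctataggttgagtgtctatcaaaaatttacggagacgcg
ATG39: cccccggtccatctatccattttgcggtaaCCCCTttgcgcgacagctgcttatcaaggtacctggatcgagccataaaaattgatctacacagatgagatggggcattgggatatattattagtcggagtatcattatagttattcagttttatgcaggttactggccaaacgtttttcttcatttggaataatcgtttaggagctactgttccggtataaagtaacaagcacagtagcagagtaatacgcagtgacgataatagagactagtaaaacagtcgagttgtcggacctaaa
In R64 these windows lie at chrII:80732-81031 (minus strand) for ATG8 (YBL078C), chrXV:168427-168726 (plus strand) for ATG19 (YOL082W), chrXV:165414-165713 (plus strand) for ATG34 (YOL083W) and chrXII:758834-759133 (minus strand) for ATG39 (YLR312C). AGGGG, searched on both strands, was in the windows of 5 of the 10 genes (ATG8, ATG19, ATG32, ATG34 and ATG39) and in 22.4% of 5694 such windows over all genes. ATG8 held 2 copies, 91 to 87 and 68 to 64 bases before the start codon. GGCGGC was in 2 of the 10 windows, against 5.1% of all windows. In ATG8 it occurred as 2 overlapping copies 133 to 125 bases before the start codon, and in ATG19 as 1 copy 43 to 38 bases before it. GCGGGG, the core of the site bound by the glucose repressor Mig1, was in 0 of the 10 windows, against 3.0% of all windows. These matches describe letters and not binding.

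ATG8, ATG11 and the 8 receptor genes had more footprints without glucose than with it, by 1.88-fold (ATG11) to 148-fold (ATG39), and all but ATG45 were also called higher in RNA. For 9 of 10 the RNA change was called higher, against 30.4% of 5519 genes tested, and for 0 of 10 lower, against 30.2% (edgeR quasi-likelihood F test, adjusted p under 0.05). For 10 of 10 the footprint change was called higher, against 33.8% of 5319 genes, and for 0 of 10 lower, against 31.0%. All 10 log2 changes lay above 0 in both assays, with edgeR and with DESeq2. With total counts in place of TMM factors, footprint calls over all genes were 2416 higher and 1200 lower, against 1798 and 1648. The median log2 change was 2.65 in RNA and 3.87 in footprints, beside medians of 0.01 and 0.10 over all genes tested. Every -GLU library lay above every +GLU library for 10 of 10 genes in RNA RPKM, which held for 36.9% of all genes, and for 10 of 10 in footprint RPKM, which held for 48.3% of all genes. All 10 genes passed the filter on low counts in each test. A gene can pass it through the -GLU libraries alone, so passing says nothing of the +GLU level. ATG39, ATG45, ATG34 and ATG32 had only 3 to 21 reads in each +GLU footprint library. In the +GLU RNA libraries ATG39 had only 23, 8 and 4 reads. None of the 10 overlaps another annotated gene in R64.

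**Figure D1:**
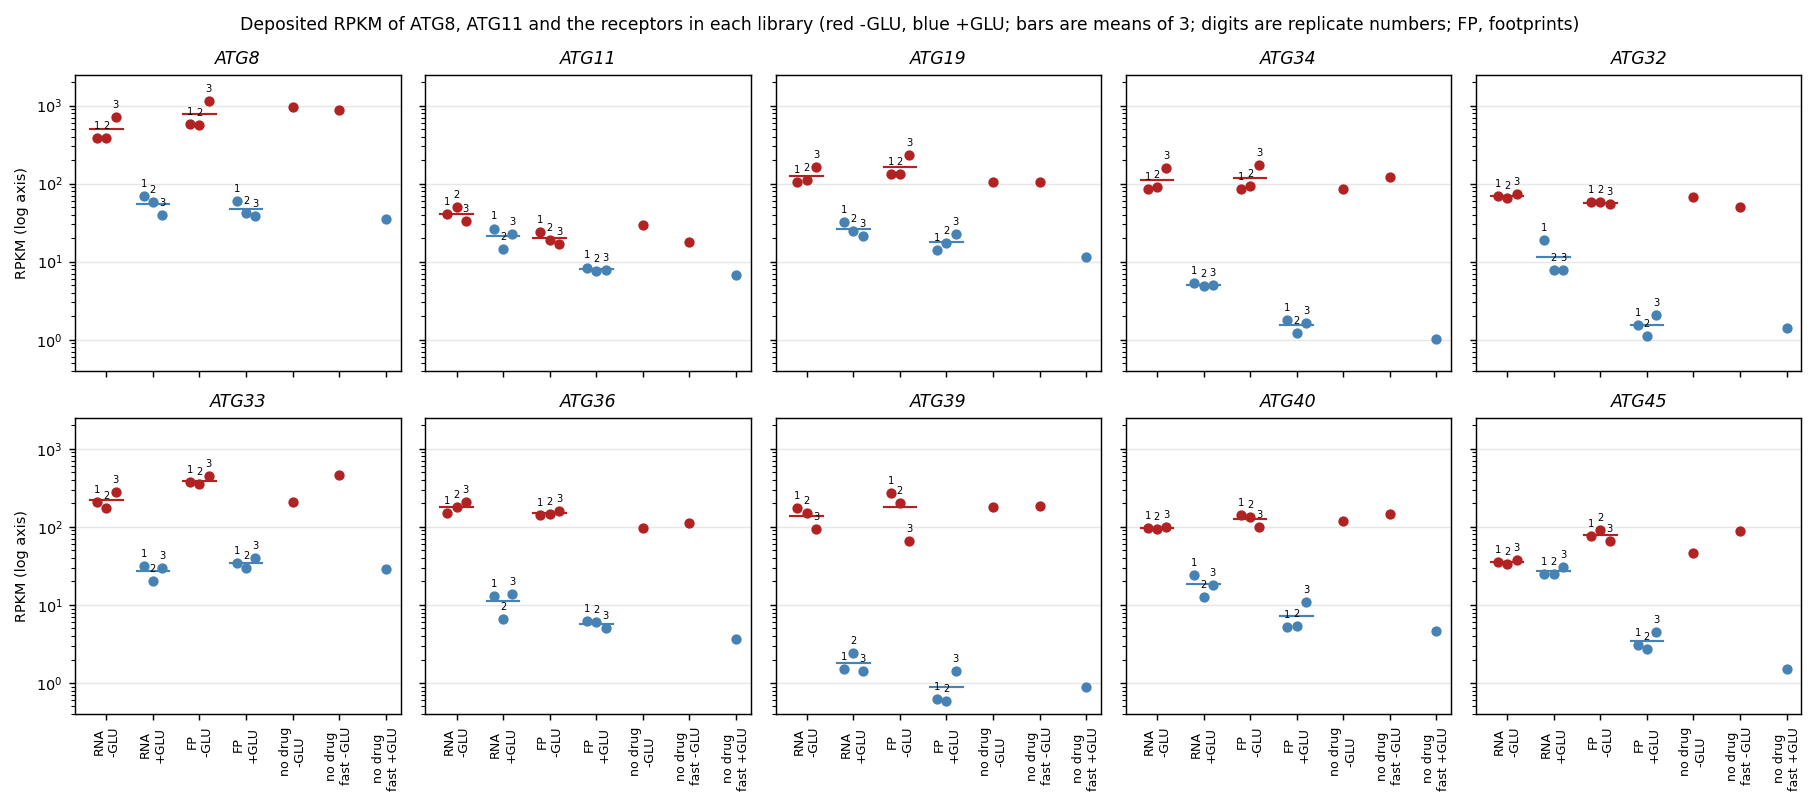
Deposited RPKM (log axis) of each gene in each of the 15 libraries, red for -GLU and blue for +GLU, with bars at the means of 3 libraries and digits for replicate numbers. In each panel the -GLU points of RNA and of footprints lie above the +GLU points of the same assay, by the least in ATG45 RNA (33.8 to 37.3 against 24.6 to 31.0 RPKM) and, by the ratio of the means, by the most in ATG39.

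ATG8 (YBL078C), which encodes the ubiquitin-like protein that receptors bind, had the highest mean level of the 10 in each group. In RNA it had 389, 381 and 717 RPKM in the -GLU libraries (replicates 1 to 3), against 68.7, 57.6 and 40.0 RPKM in the +GLU libraries. In footprints it had 586, 571 and 1150 RPKM without glucose, against 59.7, 41.5 and 38.6 RPKM with glucose. Replicate 3 was the highest of the -GLU libraries in both assays, and the groups did not overlap. The log2 change was 3.04 ± 0.37 in RNA (SE, edgeR adjusted p = 0.000163) and 3.65 ± 0.35 in footprints (adjusted p = 0.000106). Among all genes, ATG8 stood above 93.2% to 96.3% of genes in the -GLU footprint libraries and above 54.4% to 62.7% in the +GLU footprint libraries.

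ATG11 (YPR049C), the scaffold that receptors share, had the smallest footprint change. Its RNA was at 41.3, 49.5 and 33.2 RPKM in -GLU libraries, against 26.6, 14.6 and 22.4 RPKM in +GLU libraries. Footprints were at 23.7, 19.2 and 17.01 RPKM in -GLU libraries, against 8.42, 7.67 and 7.74 RPKM in +GLU libraries. The log2 change was 0.82 ± 0.23 in RNA (edgeR adjusted p = 0.012) and 0.91 ± 0.20 in footprints (adjusted p = 0.00455). The RNA call was lost when -GLU RNA replicate 2 was left out (0.69, adjusted p = 0.0575) and when only RNA selected on cellulose was used (0.69, adjusted p = 0.12). By mean RNA RPKM it was 9 of 10 in -GLU libraries, where its range overlapped that of ATG45, and 5 of 10 in +GLU libraries.

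ATG19 (YOL082W) and ATG34 (YOL083W) encode related receptors. Atg19 carries the precursor of aminopeptidase I and α-mannosidase to the vacuole during growth, and Atg34 carries α-mannosidase during starvation. ATG19 RNA was at 106, 110 and 163 RPKM without glucose, against 32.4, 25.0 and 21.6 RPKM with glucose. ATG34 RNA was at 85.2, 90.6 and 157 RPKM without glucose, against 5.26, 4.93 and 5.09 RPKM with glucose, from 82, 17 and 15 reads. Both were highest in -GLU replicate 3, and the 2 genes were close to each other without glucose and apart with it. ATG19 footprints were at 133, 132 and 231 RPKM in -GLU libraries, against 13.9, 17.3 and 22.5 RPKM in +GLU libraries. ATG34 footprints were at 85.2, 93.6 and 172 RPKM in -GLU libraries, against 1.78, 1.23 and 1.64 RPKM in +GLU libraries, which rested on 9, 13 and 13 reads. The log2 change was 2.13 ± 0.27 in RNA and 2.75 ± 0.31 in footprints for ATG19, and 4.34 ± 0.36 in RNA and 5.80 ± 0.36 in footprints for ATG34 (edgeR adjusted p = 0.000189, 0.000203, 2.84e-05 and 2.48e-05). The ratio of ATG34 to ATG19 RPKM in RNA was 0.807, 0.822 and 0.963 in -GLU libraries, against 0.162, 0.197 and 0.236 in +GLU libraries. In footprints this ratio was 0.639, 0.707 and 0.742 in -GLU libraries, against 0.128, 0.0712 and 0.0732 in +GLU libraries. The groups did not overlap in either assay.

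ATG32 (YIL146C) encodes the receptor for mitochondria, a protein of their outer membrane. Its RNA was at 68.6, 64.5 and 72.7 RPKM in -GLU libraries, against 19.1, 7.87 and 7.91 RPKM in +GLU libraries. The +GLU library at 19.1 RPKM was the 1 of the 3 selected on cellulose, as all -GLU RNA libraries were. Footprints were at 57.9, 57.8 and 54.4 RPKM without glucose, against 1.54, 1.10 and 2.06 RPKM with glucose, from 10, 15 and 21 reads. On the log2 scale ATG32 changed by 2.40 ± 0.31 in RNA (edgeR adjusted p = 0.000198) and 4.75 ± 0.26 in footprints (adjusted p = 2.18e-05). With cellulose-selected RNA only, its RNA change was 1.91 (adjusted p = 0.015).

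ATG33 (YLR356W) encodes another mitochondrial outer membrane protein that takes part in the removal of mitochondria. It had 211, 176 and 280 RPKM in -GLU RNA, against 31.4, 20.4 and 29.7 RPKM in +GLU RNA. Its footprints were at 376, 356 and 445 RPKM without glucose, against 34.6, 29.7 and 40.4 RPKM with glucose. It was second to ATG8 in mean level in all 4 groups, and its range overlapped that of ATG8 in +GLU footprints only. In RNA its second place was not clear of the spread. Its range overlapped that of ATG36 without glucose, and with glucose its mean of 27.15 RPKM was close to that of ATG45 (26.92). Its log2 change was 2.91 ± 0.29 in RNA and 3.07 ± 0.21 in footprints (edgeR adjusted p = 6.23e-05 and 3.13e-05).

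ATG36 (YJL185C) encodes the receptor for peroxisomes. RNA was at 151, 181 and 211 RPKM without glucose, against 13.1, 6.57 and 13.9 RPKM with glucose. Footprints were at 140, 144 and 162 RPKM without glucose, against 6.16, 6.04 and 5.01 RPKM with glucose. Neither assay showed an overlap. ATG36 rose by 3.89 ± 0.31 in RNA and 4.26 ± 0.18 in footprints on the log2 scale (edgeR adjusted p = 2.32e-05 and 1.71e-05).

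ATG39 (YLR312C) and ATG40 (YOR152C) encode receptors for the endoplasmic reticulum, Atg39 for its part around the nucleus and Atg40 for its outer part. ATG39 was the lowest of the 10 genes with glucose in both assays and had the largest change. Its RNA was at 173, 149 and 93.7 RPKM in -GLU libraries, against 1.53, 2.40 and 1.41 RPKM in +GLU libraries, from 23, 8 and 4 reads. Its footprints were at 268, 202 and 66.6 RPKM in -GLU libraries, against 0.615, 0.589 and 1.44 RPKM in +GLU libraries, from 3, 6 and 11 reads. Unlike ATG8, ATG39 was lowest in -GLU replicate 3 in both assays. The log2 change was 6.22 ± 0.34 in RNA, rank 44 of 5519 genes, and 7.21 ± 0.72 in footprints, rank 62 of 5319 (edgeR adjusted p = 6.42e-06 and 0.000123). ATG40 RNA was at 97.7, 93.7 and 100.5 RPKM without glucose, against 24.4, 12.7 and 18.2 RPKM with glucose. Its footprints were at 141, 134 and 99.5 RPKM without glucose, against 5.15, 5.40 and 10.9 RPKM with glucose, from 16, 35 and 53 reads. ATG40 changed by 2.25 ± 0.25 on the log2 scale in RNA and by 3.68 ± 0.35 in footprints (edgeR adjusted p = 0.000107 and 0.000106).

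ATG45 (YIL024C) encodes a receptor for glycogen, the cell's store of glucose. Its RNA was at 35.9, 33.8 and 37.3 RPKM in -GLU libraries, against 24.6, 25.2 and 31.0 RPKM in +GLU libraries. The groups did not overlap, yet the log2 change of 0.27 ± 0.28 did not pass the test (edgeR adjusted p = 0.421). Footprints were at 76.5, 90.8 and 65.8 RPKM without glucose, against 3.08, 2.74 and 4.50 RPKM with glucose, from 7, 13 and 16 reads. The log2 change in footprints was 4.06 ± 0.30 (adjusted p = 4.12e-05). ATG45 RNA, at a mean of 35.6 RPKM, was the lowest of the 10 without glucose, and with glucose, at 26.9 RPKM, it was 3 of 10, with a range that overlapped those of ATG33 and ATG19.

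Ordered by mean footprint RPKM without glucose, ATG8 (769 ± 330), ATG33 (392.4 ± 47.1) and ATG39 (179 ± 103) led, followed by ATG19, ATG36, ATG40, ATG34, ATG45 (77.7 ± 12.5), ATG32 (56.7 ± 2.02) and ATG11 (19.9 ± 3.38) (SD, n = 3). The ranges of neighbours overlapped from ATG39 down to ATG45, so that order is not fixed beyond the spread, while ATG8, ATG33, ATG32 and ATG11 stood clear of their neighbours. With glucose the order was ATG8 (46.6 ± 11.4), ATG33 (34.9 ± 5.37), ATG19 (17.9 ± 4.29), ATG11, ATG40, ATG36, ATG45, ATG32, ATG34 and ATG39 (0.882 ± 0.484). There the overlapping neighbours were ATG8 and ATG33, ATG11 to ATG36, and ATG32 to ATG39.

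**Figure D2:**
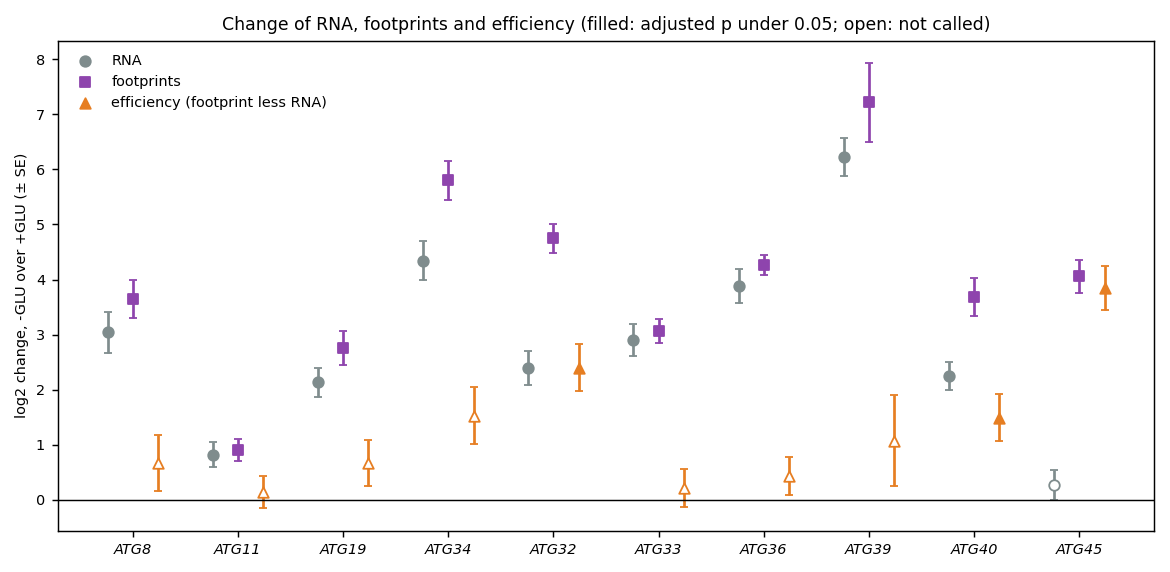
Log2 change, -GLU over +GLU, of RNA (circles), footprints (squares) and efficiency (triangles) for each gene, with standard errors. Filled symbols have an adjusted p under 0.05. ATG45 has an open RNA symbol at 0.27 and filled footprint and efficiency symbols at 4.06 and 3.85.

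Translational efficiency is the amount of footprints relative to RNA, and its change was tested as the interaction of assay and glucose state over 12 libraries. It rose for ATG45, ATG32 and ATG40, which are 3 of the 10 genes called higher, against 9.24% of 5509 genes. Of the 10, 0 were called lower, against 4.48%. All 10 changes lay above 0 with edgeR and with DESeq2, as did the median over all genes. The share of all genes above 0 was not computed. ATG11 (0.15, rank 2721) and ATG33 (0.22, rank 2508) fell below 0 when some single libraries were left out. The median change of the 10 was 0.87, beside 0.13 over all genes. Calls over all genes depended on scaling: 509 higher and 247 lower with TMM factors, 379 and 326 with RLE factors, 769 and 137 with total counts, and 559 and 525 with DESeq2. They also depended on single RNA libraries, since more genes were called lower than higher without +GLU RNA replicate 1 (362 higher, 522 lower), +GLU RNA replicate 2 (206 and 239), -GLU RNA replicate 1 (223 and 284), -GLU RNA replicate 2 (141 and 179) or -GLU RNA replicate 3 (425 and 609). With the footprint and RNA libraries of 1 number in a glucose state treated as a pair (the replicate block), 821 genes were called higher and 610 lower, and 4 of the 10 genes described here were called higher, ATG34 being the addition.

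ATG45 changed most, by 3.85 ± 0.40 on the log2 scale (edgeR adjusted p = 0.00037, rank 57). Its footprint RPKM divided by RPKM of the RNA library of the same number was 2.13, 2.69 and 1.76 without glucose, against 0.125, 0.109 and 0.145 with glucose. By the ratio of mean RPKM it stood above 94.9% of genes without glucose and above 5.88% with glucose. ATG32 changed by 2.40 ± 0.43 (adjusted p = 0.00533, rank 201), and by 1.72 without +GLU RNA replicate 1 (adjusted p = 0.00975). Its ratios were 0.844, 0.896 and 0.748 without glucose, against 0.0804, 0.140 and 0.261 with glucose, and it stood above 59.9% of genes without glucose and above 6.21% with it. Both calls held under each of 20 other settings.

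ATG40 changed by 1.49 ± 0.43 in efficiency (edgeR adjusted p = 0.0385). Ratios of footprint to RNA RPKM were 1.44, 1.43 and 0.990 without glucose, against 0.211, 0.424 and 0.598 with glucose. The ATG40 call was lost in 11 of 20 other settings, among them leaving out any of +GLU footprint replicates 1 and 2, -GLU footprint replicates 1 and 2, or any of the 6 RNA libraries, with values of 1.09 to 1.96 and adjusted p of 0.00911 to 0.141 over the 20. ATG34 was not called, with 1.53 ± 0.52 (adjusted p = 0.0677), and was called in 5 of 20 other settings, among them the replicate block (1.56 ± 0.32, adjusted p = 0.00519) and without -GLU replicate 3 of both assays (1.59, adjusted p = 0.00356). Its ratios were 1.00, 1.03 and 1.09 without glucose, against 0.338, 0.250 and 0.323 with glucose, with no overlap. The other 6 genes were not called in any of the 20 settings, at 1.07 ± 0.82 for ATG39, 0.67 ± 0.51 for ATG8, 0.68 ± 0.41 for ATG19, 0.44 ± 0.35 for ATG36, 0.22 ± 0.35 for ATG33 and 0.15 ± 0.30 for ATG11. ATG33 had high ratios in both states, above 91.5% of genes without glucose and 89.3% with it, and ATG11 low ratios in both, above 26.7% and 26.8%.

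**Figure D3:**
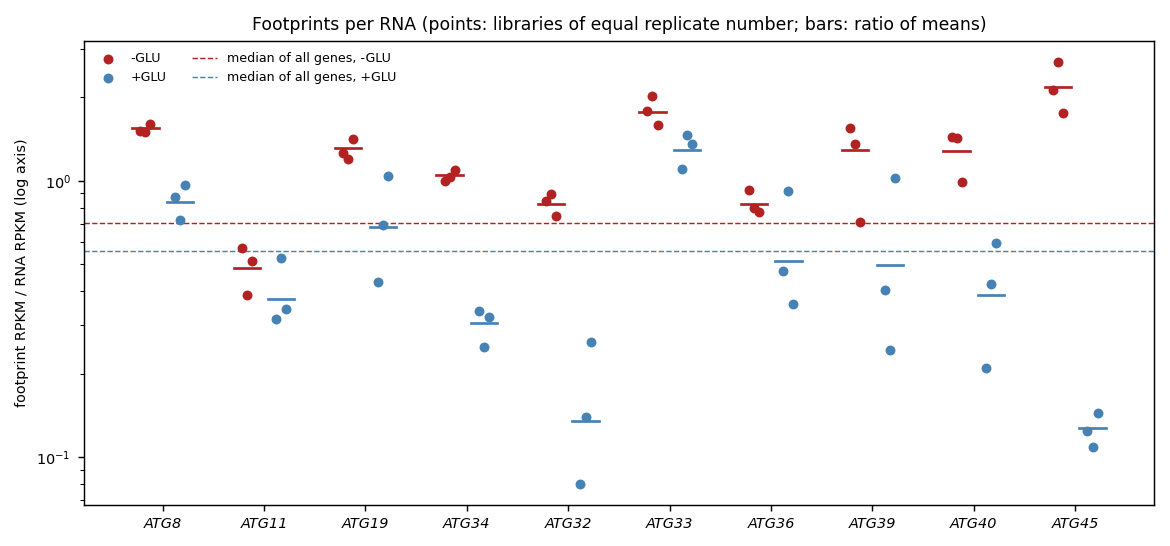
Footprint RPKM over RNA RPKM (log axis), red for -GLU and blue for +GLU, with points for libraries of equal replicate number, bars for the ratio of mean RPKM and dashed lines for the medians of all genes (0.703 for -GLU, 0.558 for +GLU). ATG45 lies at 1.76 to 2.69 in -GLU and 0.109 to 0.145 in +GLU cells, and ATG33 lies above both medians in both states.

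The RNA libraries were not all made alike. Poly(A) selection was on cellulose for the 3 -GLU libraries and +GLU replicate 1, and on oligo-dT beads (DynaBeads) for +GLU replicates 2 and 3. With cellulose-selected RNA only, which leaves 1 +GLU library assumed to vary like the others, log2 changes in RNA were 0.57 (ATG45) to 6.53 (ATG39). The call of ATG11 (0.69) was lost, and calls were also fewer over all genes. In the same setting the efficiency change was 3.37 for ATG45 and 2.72 for ATG32 (adjusted p = 0.0094 each) and was no longer called for ATG40 (1.52, adjusted p = 0.113). All +GLU RNA libraries selected on DynaBeads lack a -GLU counterpart, so no value within that batch can be given. Subtraction of rRNA is described for +GLU RNA replicates 1 and 2 and not for the other 4 RNA libraries, and its part in the RNA changes was not tested. In +GLU RNA replicate 1 and -GLU RNA replicate 3 reads were counted over a length 26 nt longer than in the other RNA libraries.

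Among -GLU libraries, replicate 3 lay outside the range of replicates 1 and 2 for 10 of 10 genes in each assay, as it did for 85.4% of all genes tested in RNA and 84.0% in footprints, and not in 1 direction. In RNA it was above both for 8 genes and below both for ATG11 and ATG39. In footprints it was above both for ATG8, ATG19, ATG33, ATG34 and ATG36, and below both for ATG11, ATG32, ATG39, ATG40 and ATG45. Replicate 3 differed from the mean of the other replicates by 1.15 (log2) in RNA and 0.97 in footprints for ATG8, and by -0.59 and -1.89 for ATG39. The medians over all genes, with sign, were -0.01 and -0.07. Taken without sign, the median difference was 0.361 in RNA and 0.537 in footprints over all genes, and 0.565 and 0.485 over the 10. Without it the log2 changes were 2.56 in RNA and 3.26 in footprints for ATG8, 6.43 and 7.62 for ATG39, and 3.94 and 5.47 for ATG34, and the counts of genes called were again 9 and 10. Replicate 3 of both assays was also counted over a length 26 nt longer than replicates 1 and 2. Why replicate 3 differs was not tested.

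Without cycloheximide the direction was the same. With 1 library a group there is no replicate check and no p, and intervals (95%, exact) cover counting error only. The ratio of -GLU to +GLU footprints after fast harvest was at least 2 for 10 of 10 genes, against 26.1% of 5414 genes. The ratios used TMM factors, while RPKM is scaled to total reads, so a quotient of RPKM differs from the ratio. The ratio was largest for ATG39, at 164 (interval 116 to 241), where RPKM was 185 in -GLU and 0.892 in +GLU cells. ATG34 followed at 93.1 (67.5 to 132), with 120 RPKM in -GLU and 1.02 RPKM in +GLU cells. For ATG45 the ratio was 47.5 (31.7 to 74.2), with 89.5 RPKM in -GLU and 1.498 RPKM in +GLU cells. ATG32 had a ratio of 28.4 (22.1 to 37.1), ATG40 of 25.4 (20.7 to 31.4), ATG36 of 23.9 (19.4 to 29.8) and ATG8 of 19.5 (17.5 to 21.9). The smallest were those of ATG33 at 12.8 (11.6 to 14.1), ATG19 at 7.12 (6.37 to 7.98) and ATG11 at 2.15 (1.92 to 2.41). The fold change with cycloheximide was below this ratio for each of the 10 genes. The factor between them was largest for ATG45 (16.7 with the drug, 47.5 without it) and ATG40 (12.8 with the drug, 25.4 without it). How many of all genes show the same was not counted, so the difference may not be particular to the 10. It was not tested, and the drug cannot be told apart from the mode of harvest.

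**Figure D4:**
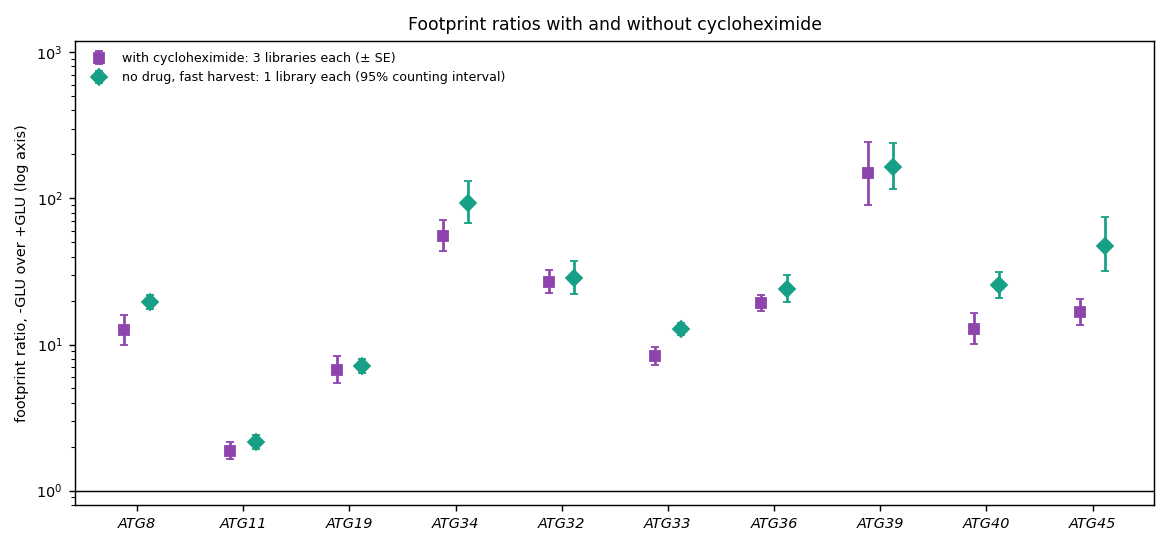
Ratio of -GLU to +GLU footprints (log axis) for each gene, with cycloheximide (squares, 3 libraries a group, standard errors) and without it after fast harvest (diamonds, 1 library a group, 95% counting intervals). The squares lie below the diamonds, narrowly for ATG32 (26.9 and 28.4), ATG19 (6.73 and 7.12) and ATG39 (148 and 164).

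Modes of harvest were compared in -GLU cells without the drug, with 1 library each. The library not labelled fast had 1610986 counts and the fast one 8570783. Harvest cannot be told apart from other differences between the libraries. In the ratio of the first to the fast library, 0 of 10 genes reached 2, against 6.00% of 5315 genes, and 2 of 10 were at or below 0.5, against 14.8%. Those were ATG33, at 0.416 (0.358 to 0.482), and ATG45, at 0.473 (0.335 to 0.653), for which there were 41 and 419 reads. The other 8 genes lay between 0.638 (ATG34) and 1.47 (ATG11). In RPKM, which is scaled to total reads and not by TMM factors, ATG33 was at 211 in the first library and 462 in the fast one. ATG45 was at 46.6 and 89.5.

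Most of the other autophagy genes listed were also called higher. Of 29 core genes in 5 lists, 21 were called higher and 2 lower in RNA, beside 30.4% and 30.2% of all genes tested, and 22 higher and 1 lower in footprints, beside 33.8% and 31.0%. Their median log2 changes were 1.13 in RNA and 1.68 in footprints. With cellulose-selected RNA only, which leaves 1 +GLU library, fewer were called in RNA, among core genes and over all genes alike. With total counts 25 were called higher and 0 lower in footprints, beside 45.4% and 22.6% of all genes tested. All 5 genes of the kinase complex that starts autophagosomes were called higher in RNA, led by ATG29 at 2.45 ± 0.43, which overlaps SET6 in the annotation, so that without knowledge of strand its reads may be shared. ATG1, the kinase, was at 1.39 ± 0.22, ATG31 at 1.59 ± 0.27, ATG17 at 0.92 ± 0.26 and ATG13 at 0.74 ± 0.22. In footprints 4 of the 5 were called higher, at 1.68 ± 0.32 (ATG17) to 2.40 ± 0.30 (ATG29), and ATG13 was at 0.05 ± 0.16. Of 7 genes for membrane supply and lipid transfer, 5 were called higher in RNA and 4 in footprints, the largest being ATG9 at 2.42 ± 0.23 in RNA and 2.19 ± 0.32 in footprints. ATG9 encodes a membrane protein of the vesicles that seed the autophagosome. ATG27, which encodes a membrane protein involved in the traffic of Atg9, was called lower in both, at -0.67 ± 0.21 in RNA and -0.72 ± 0.20 in footprints, though not in footprints with total counts (-0.29, adjusted p = 0.214). Its RNA call was lost with total counts, with cellulose-selected RNA only and without any 1 of +GLU RNA replicates 2 and 3 or -GLU RNA replicates 1 and 2, at -0.52 to -0.70 (adjusted p = 0.0519 to 0.196). In the phosphatidylinositol 3-kinase complex 3 of 5 were called higher in each assay. ATG14, its autophagy-specific subunit, was at 1.80 ± 0.30 in RNA and 2.40 ± 0.64 in footprints, VPS30 at 1.07 ± 0.24 and 1.01 ± 0.18, VPS15 at 0.30 ± 0.27 and 0.07 ± 0.20, VPS34 at 1.12 ± 0.25 and 0.11 ± 0.25, and ATG38 at 0.54 ± 0.23 and 1.89 ± 0.22. The 5 genes for sorting nexins and breakdown in the vacuole were called higher in both assays, with the vacuolar carboxypeptidase gene ATG42 at 3.11 ± 0.23 in RNA and 2.79 ± 0.47 in footprints. The others were ATG15, a vacuolar lipase gene (2.36 ± 0.27 and 1.30 ± 0.39), ATG22 (1.96 ± 0.27 and 2.17 ± 0.29), ATG20 (1.89 ± 0.30 and 1.67 ± 0.21) and SNX4 (1.21 ± 0.26 and 1.35 ± 0.23).

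The genes that attach Atg8 to its lipid differed between the assays. Of 7, 3 were called higher in RNA and 1, ATG5, lower (-0.96 ± 0.23), and 6 were called higher in footprints. The ATG5 RNA change was -0.94 and not called with cellulose-selected RNA only (adjusted p = 0.0883), and its footprint call (0.81 ± 0.24) was lost without +GLU footprint replicate 2 (0.69), +GLU footprint replicate 3 (0.61) or -GLU footprint replicate 1 (0.73). The largest rises were those of ATG7 in RNA (1.85 ± 0.33) and ATG3 in footprints (2.46 ± 0.18), which encode the enzymes that activate Atg8 and pass it to the lipid. ATG5, part of the complex that helps Atg8 conjugation, averaged 101 ± 31.7 RPKM in -GLU RNA and 175 ± 19.3 RPKM in +GLU RNA, but 26.4 ± 1.64 RPKM in -GLU footprints and 11.4 ± 2.75 RPKM in +GLU footprints (SD, n = 3 each). ATG12, whose product is joined to Atg5, averaged 64.2 ± 2.81 RPKM in -GLU RNA and 59.5 ± 13 RPKM in +GLU RNA, and 58.9 ± 27 RPKM in -GLU footprints and 12.1 ± 0.608 RPKM in +GLU footprints. The efficiency change was called higher for 4 of the 7, ATG12 (1.95 ± 0.41), ATG5 (1.84 ± 0.31), ATG16 (1.60 ± 0.48) and ATG3 (1.03 ± 0.29), and for 1 of the 22 genes in the other 4 core lists, ATG38 (1.40 ± 0.31), beside 9.24% of all genes tested. That core count of 5 was 3 without any 1 of +GLU footprint replicates 1 to 3, +GLU RNA replicate 1 or -GLU RNA replicate 1. In those settings the share of all genes called higher was also lower, at 3.56% to 6.56%. The core count was 2 without +GLU RNA replicate 2 (3.72% of all genes called higher), 1 without -GLU RNA replicate 2 (2.55%) and 3 with RLE factors (6.88%). It was lowest with cellulose-selected RNA only, where calls over all genes were also fewest. It was 6 with total counts (14%), with the replicate block (14.9%) and without -GLU footprint replicate 1 (9.99%). Core genes called lower in efficiency were 0 in the main fit (4.48% of all genes), 3 without +GLU RNA replicate 1 (9.46%) and 2 with the replicate block (11.1%). They were 1 with RLE factors (5.92%), with DESeq2 (9.53%), and without -GLU RNA replicate 1 (5.14%) or -GLU footprint replicate 3 (5.15%).

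All 4 cargo genes of Atg19 and Atg34 were called higher in both assays. AMS1, the α-mannosidase, averaged 119 ± 12 RPKM in -GLU RNA and 3.18 ± 1.82 RPKM in +GLU RNA, and 124 ± 8.72 RPKM in -GLU footprints and 1.18 ± 0.255 RPKM in +GLU footprints. Its log2 change was 5.05 ± 0.36 in RNA and 6.29 ± 0.27 in footprints (edgeR adjusted p = 1.25e-05 and 1.71e-05). APE1, the aminopeptidase I that Atg19 carries, changed by 2.79 ± 0.33 and 2.37 ± 0.31, APE4 by 1.89 ± 0.27 and 1.35 ± 0.22, and LAP3 by 2.22 ± 0.25 and 1.63 ± 0.22. CUE5, a receptor for ubiquitinated protein, rose by 1.87 ± 0.26 in RNA and 1.69 ± 0.19 in footprints, whereas NUP159, a nuclear pore protein that binds Atg8, was at 0.33 ± 0.23 and -0.15 ± 0.26 and was not called. Of 12 kinase and phosphatase genes that act on receptors, 4 were called higher and 2 lower in RNA, and 4 higher and 1 lower in footprints. The share called higher was near that of all genes tested (30.4% in RNA, 33.8% in footprints). The share called lower was below that of all genes tested (30.2% in RNA, 31.0% in footprints). FAR11 was highest in RNA at 1.32 ± 0.26 and FAR3 in footprints at 1.48 ± 0.21, both of a complex around the phosphatase Ppg1, and the casein kinase 2 subunit CKA1 was lowest in RNA at -1.02 ± 0.19 and CKA2 in footprints at -1.18 ± 0.16. The 5 repressors of autophagy genes had RNA changes of -0.57 ± 0.31 (UME6), -0.01 ± 0.26 (PHO23), 0.01 ± 0.21 (RPD3), 0.31 ± 0.22 (SIN3) and 0.50 ± 0.24 (RPH1), with adjusted p of 0.0926 to 0.984. In footprints PHO23 was called higher (1.05 ± 0.30) and UME6 lower (-1.28 ± 0.38).

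**Figure D5:**
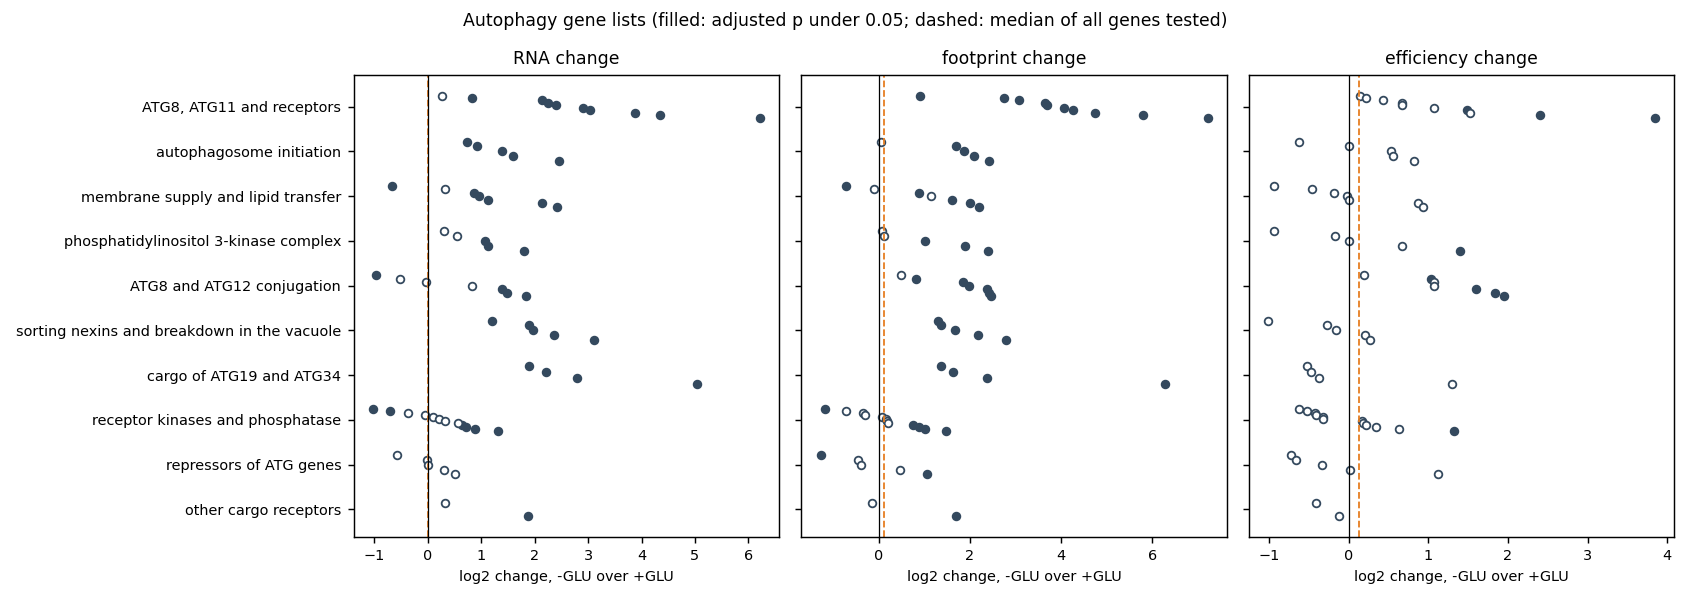
Log2 change, -GLU over +GLU, of each gene (points) in 10 lists, for RNA, footprints and efficiency; filled points have an adjusted p under 0.05 and dashed lines mark the median of all genes tested. The top row, with ATG8, ATG11 and the receptors, spans 0.27 to 6.22 in RNA and 0.91 to 7.21 in footprints, and the repressors of ATG genes lie between -0.57 and 0.50 in RNA.

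Across the 12 libraries with cycloheximide, the genes whose levels ran most like those of ATG8 were AIM19 (Pearson r = 0.992), SPG4 (0.991), MPC3 (0.990), DDR2 (0.990) and GSP2 (0.989), of 5224 genes compared on log2(CPM + 1). For the others the closest gene was DCS2 for ATG34 (0.996), YKL107W for ATG36 (0.996), KNS1 for ATG32 (0.995), SIP2 for ATG39 (0.995), RGI1 for ATG19 (0.993), PEX11 for ATG33 (0.992), GDH2 for ATG40 (0.989), PEX6 for ATG11 (0.982) and PET54 for ATG45 (0.966). The points share 2 glucose states and 2 assays, so genes that rise strongly without glucose in both assays can score high for that alone. ATG11, which was called higher in both assays but changed less, had r = 0.456 with ATG8. Among the 10 genes themselves r was 0.986 for ATG34 and ATG36 and 0.379 for ATG11 and ATG33, over the same 12 libraries.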

How the data were processed

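Deposited for each of 15 libraries of 1 yeast strain were the authors' counts of reads on each gene and RPKM values; 1 entry in each of 2 columns was not whole, so the authors' values there are named expected counts, and that gene, YPR203W, was left out, leaving 5703 of 5704 genes with no rounding needed. RPKM was used as deposited. From counts and RPKM together, the counted length of the 10 genes was 26 nt longer in 3 libraries than in the other 12. The 3 were -GLU footprint replicate 3, -GLU RNA replicate 3 and +GLU RNA replicate 1. Per the labels' protocols, footprints came from the monosome region of sucrose gradients and were tailed with poly(A). No aligner, genome build or strand setting is given in the sources used here. The labels of the libraries without cycloheximide say in their descriptions that the drug was omitted, while their treatment field carries the drug.

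Libraries were grouped by their titles. Each change was estimated by edgeR 4.0.16 (R 4.3.3) with quasi-likelihood F tests, TMM factors and filterByExpr with a minimum count of 10, over 6 RNA, 6 footprint or all 12 libraries, with Benjamini-Hochberg adjustment over all genes tested at 0.05, after a test on simulated data. Standard errors are the log2 change over the square root of F. Single libraries were compared by TMM-scaled ratios with exact binomial intervals, for genes with at least 10 reads in the pair. DESeq2 1.42.0 was an alternative, with others named in the closing section. A count of 0 allows 3 counts, 0.0981 to 1.86 CPM; reads carry no molecular identifiers, so this covers counting error only.

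Replicate numbers did not pair -GLU with +GLU libraries, whose deviations from the group means correlated at -0.13 to 0.08. Footprint and RNA libraries of 1 number correlated at 0.39 to 0.62 in -GLU cells, and so were paired there, and at 0.09 to 0.16 in +GLU cells, where 1 of the 3 pairs was below 0.1; in both states each correlated best with its own number. The efficiency test does not use this pairing, and values with it as a block are given beside that test.

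The genes, lists, motifs and settings were chosen with earlier results of these data known. Named beside the 10 genes were, for each list, the largest rise and fall among genes called, every gene of lists of at most 5, and the genes most correlated with each of the 10 (mean CPM of at least 10). Values for ATG12, ATG16 and ICL1 were added after they were seen. R64 gave gene names, coding lengths and promoters.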

Additional observations from a re-analysis of the deposited data

How the results depend on the processing

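RNA was called higher for 8 to 9 of the 10 genes, footprints for 10 and efficiency for 2 to 4 under RLE factors, total counts, no filter, DESeq2, a counted-length offset, the replicate block, each library left out, and cellulose-selected RNA only. With the replicate block, 9 RNA, 10 footprint and 4 efficiency changes of the 10 were called, ATG34 efficiency being the 1 call of the 30 that it changed, and calls over all genes were 3134, 3281 and 1431, against 3343, 3446 and 756. Calls over all genes with cellulose-selected RNA only were 1764 in RNA and 145 in efficiency, with 10 and 0 core genes higher, a setting with fewer samples. Efficiency calls were 273 to 1034 over all genes with 1 library left out. They were 1378 without -GLU replicate 3 of both assays, a setting chosen after seeing the data. Core genes called higher in efficiency were 1 to 6 with 1 library left out and 3 with RLE factors, beside 2.55% to 10.3% and 6.88% of all genes. In some settings core genes were called lower. With 1 library left out, the efficiency change of ATG11 was -0.16 to 0.273, below 0 without -GLU footprint replicate 1 (-0.036), +GLU RNA replicate 1 (-0.16) or -GLU RNA replicates 1 (-0.101) and 3 (-0.15). That of ATG33 was -0.17 to 0.368, below 0 without +GLU RNA replicate 1 (-0.036) or -GLU RNA replicates 1 (-0.081) and 2 (-0.17). Neither gene was called, and the cause was not tested. Between the 2 harvests of -GLU cells, the log2 ratio of ATG8 (-0.01) was 0.13 with total counts and 0 with RLE factors, and that of ATG19 (-0.13) was 0.009 with total counts. Total counts moved the median of all genes to 0.55 in footprints, 0.15 in RNA and 0.36 in efficiency, from 0.10, 0.01 and 0.13, RLE factors and DESeq2 moved it to 0.02 in efficiency, and total counts gave 2416 footprint changes higher and 1200 lower, against 1798 and 1648. Depth limits the +GLU footprints of ATG39, ATG45, ATG34 and ATG32, at 3 to 21 reads a library. It also limits +GLU RNA, with 23, 8 and 4 reads for ATG39, 82, 17 and 15 for ATG34, and 145, 16 and 29 for ATG36.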
